A study of Mus musculus with 19 samples.

Results

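Astrocytes can bind and engulf dying cells, synapses and debris through receptors at their surface, and 10 genes of this machinery were described across the sorted hippocampal cells: the receptors *Megf10*, *Mertk*, *Itgav*, *Itgb5* and *Lrp1*, the bridging proteins *Mfge8*, *Gas6* and *Pros1*, the adaptor *Gulp1*, and *Abca7*, a lipid transporter linked to phagocytosis. All 10 were found by symbol among the 60567 listed genes. *Itgb5* stood on 2 entries, and the entry with the higher total was used. The study lists 6 of them as phagocytosis genes (*Gulp1*, *Itgav*, *Itgb5*, *Lrp1*, *Megf10* and *Mertk*). From these same data it reports similar levels of these 6 across its groups of astrocytes. None of the 10 was chosen here by its level or its change, though earlier results of these data were known.

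RNAseq had been performed on hippocampal cells of male C57bl6 mice aged 9 months, which were separated by FACS on their GFP signal. Every mouse had received, some months earlier, an AAV into the hippocampus whose GFAP-derived promoter (gfaABC1D) drives expression in astrocytes. WT-GFP mice were littermates without transgenes, injected with AAV-GFP. APP-GFP mice were APP/PS1dE9 mice with the same vector, that is, mice with a chimeric mouse/human *App* carrying the Swedish mutations and a second human transgene, a model of amyloid deposition in Alzheimer's disease. APP-SOCS3 mice were APP/PS1dE9 mice injected with AAV-SOCS3 and AAV-GFP at the same total viral load. SOCS3 (Suppressor Of Cytokine Signaling 3) is an endogenous inhibitor of the JAK2-STAT3 pathway, and this design asks what changes in astrocytes of the Alzheimer model and what changes when that pathway is inhibited in them. There were 7 samples of GFP+ astrocytes from WT-GFP mice, 4 from APP-GFP mice and 5 from APP-SOCS3 mice. GFP- cells gave 3 samples, all from WT-GFP mice. The study describes them as microglia, neurons, oligodendrocyte precursors and non-infected astrocytes, and their marker levels are given below. The 2 hippocampi of a mouse were sorted separately, and it is not stated which samples share a mouse. The p-values below treat all samples as independent. They are too small if samples within a group share a mouse, and can be too large if a GFP+ and a GFP- sample share one.

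Engulfment of a dying cell starts with phosphatidylserine, a lipid that healthy cells keep on the inner side of their membrane and dying cells expose. Some receptors bind it through soluble bridging proteins: GAS6 and protein S (*Pros1*) link it to the kinases of the TYRO3, AXL and MERTK family, and MFG-E8 links it to the integrins αvβ3 and αvβ5, built from *Itgav* with *Itgb3* or *Itgb5*. MEGF10 binds complement C1q and signals with the adaptor GULP1, which also binds the tail of LRP1. In the brain, MEGF10 and MERTK are known as receptors with which astrocytes remove synapses.

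Reads counted on genes ranged from 19331876 to 32621917 per sample, and a single read stood for 0.756 to 1.18 units of normalized mRNA level. WT-GFP replicates 1, 2 and 3 and APP-GFP replicate 2 had fewer than 20000 genes with a read. *Socs3*, the delivered gene, ranged from 13296 to 37750 in the 5 APP-SOCS3 samples and from 438 to 1639 in the 11 other astrocyte samples. This matched the labels. In GFP- cells, which had not received this gene, *Socs3* ranged from 10320 to 17689. All 15 astrocyte markers, among them *Aqp4*, *Slc1a2* and *Aldh1l1*, were called higher in the GFP+ fraction of WT-GFP mice than in the GFP- fraction. All 19 microglia markers and all 20 endothelial markers were called lower in it, as were 6 of 7 markers of border macrophages, 12 of 12 of mural cells, 8 of 14 of neurons, 9 of 9 of oligodendrocyte precursors and 4 of 5 of choroid plexus. Of 9 oligodendrocyte markers tested, 2 were higher and 3 lower. Among all genes tested, 9.25% were called higher and 33.5% lower. In GFP- cells, summed marker levels averaged 249534 for endothelium, 196576 for microglia, 163543 for mural cells and 81628 for choroid plexus. They averaged 51406 for astrocytes, 38178 for oligodendrocyte precursors, 4796 for neurons, 3481 for oligodendrocytes and 1532 for border macrophages. These lists differ in length. In GFP+ samples the mean log2 marker levels, 7.64 to 11.6 for microglia and 3.94 to 10.2 for endothelium, lay above 0 in every sample.

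Compared per kilobase of exon, *Mfge8* had by far the highest level of the 10 in WT-GFP astrocytes, with 30784 ± 4392 normalized units per kb (SD, n = 7). *Itgb5* followed with 3614 ± 540.5 and *Gas6* with 2319 ± 486. The others had lower levels per kb: *Mertk* 548 ± 319, *Pros1* 408 ± 202, *Lrp1* 155 ± 46.0, *Itgav* 128 ± 93.4, *Megf10* 75.5 ± 59.7, *Gulp1* 73.1 ± 47.1 and *Abca7* 19.02 ± 12.4. The lowest *Mfge8* sample, at 22374 per kb, lay above the highest *Itgb5* sample, at 4327 per kb. The lowest *Gas6* sample, at 1657 per kb, lay above the highest *Mertk* sample, at 897 per kb. All other neighbours in this order had overlapping samples, including *Itgb5* and *Gas6*. In GFP- cells *Mfge8* still had the highest mean, 4339 ± 646 per kb (SD, n = 3), but its range overlapped those of *Itgb5*, with 3780 ± 799 per kb. *Pros1*, at 1279 ± 166 per kb, stood above *Mertk* there, at 313 ± 113 per kb. Exon lengths were those of the GENCODE M21 annotation, while reads had been counted on constitutive regions only, so this order depends on the lengths chosen. Over the exon bases that all protein-coding transcripts of a gene share, *Gulp1* moved from rank 9 of 10 to rank 3 of 8. It has few such bases. *Itgav* and *Lrp1* have none and so had no rank there, and both stood above *Gulp1* in the first order.

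**Figure D1:**
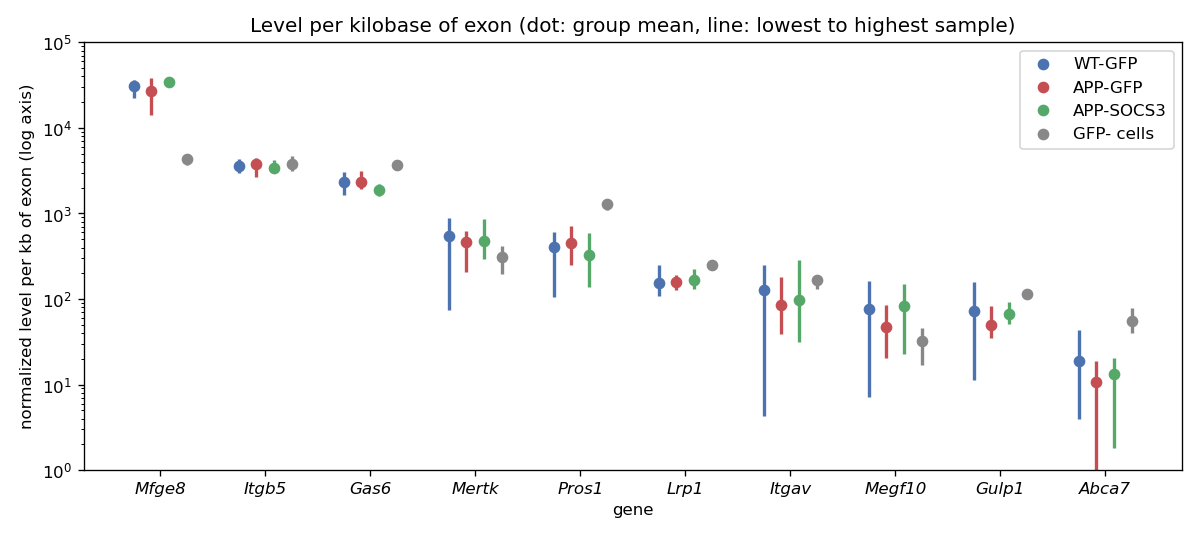
Normalized mRNA level per kilobase of exon (log axis) of the 10 genes in the 4 groups of samples. Dots are group means and lines run from the lowest to the highest sample (n = 7, 4, 5 and 3), with lines cut at 1 where a sample was lower. *Mfge8* stands above the other genes in all 3 astrocyte groups and next to *Itgb5* and *Gas6* in GFP- cells.

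*Mfge8* (mm10 chr7:79133769-79149060, minus strand) encodes MFG-E8, the secreted bridge between phosphatidylserine and αv integrins. Its normalized mRNA levels in WT-GFP astrocytes were 105023 at the lowest, 150399 at the median and 169115 at the highest, while the 3 samples of GFP- cells had 23403, 20360 and 17340. The groups were far apart, with every astrocyte sample above every GFP- sample. *Mfge8* took 0.447 to 0.723% of the total normalized level of a WT-GFP astrocyte sample and 0.0792 to 0.110% of that of GFP- cells. On the log2 scale the difference was 2.82 (limma, SE 0.15, 95% confidence interval 2.49 to 3.15, adjusted p = 5.13e-06), and the exact permutation test gave p = 0.00833, the smallest that 7 against 3 samples allow. The 4 APP-GFP samples had 157547, 66384, 102768 and 179265. The 5 APP-SOCS3 samples lay close together, at 154556, 155938, 170414, 174155 and 154117. APP-GFP astrocytes were thus the most spread of the 3 astrocyte groups, holding both the lowest and the highest level, with a coefficient of variation of 40.6% against 5.96% in APP-SOCS3 and 14.3% in WT-GFP. The lowest level belonged to APP-GFP replicate 2, one of the samples with few genes detected. The difference between APP-SOCS3 and APP-GFP was 0.46 on the log2 scale (limma, 95% confidence interval -0.086 to 0.998, adjusted p = 0.816) and was not called.

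*Gas6* (chr8:13465374-13494535, minus strand) encodes the ligand of the TYRO3, AXL and MERTK receptors. In WT-GFP astrocytes its normalized levels were 4221, 5948 and 7707 at the lowest, median and highest, and the GFP- cells had 9622, 8993 and 9507. Every astrocyte sample lay below every GFP- sample. This made a log2 fold change of -0.69 (limma, SE 0.19, 95% confidence interval -1.11 to -0.27, adjusted p = 0.0182). The APP-GFP samples had 4931, 4952, 5876 and 8098, and the APP-SOCS3 samples 5137, 5574, 4079, 5168 and 4186. These ranges overlapped each other and that of WT-GFP. In the last exons of *Gas6*, 929 bases lie within the gene span of *Tmem255b* on the opposite strand. Overlap with the exons of *Tmem255b* was not measured. The mean level of *Tmem255b* was 56.2 in WT-GFP astrocytes and 843 in GFP- cells. Whether reads were counted by strand is not stated, so a part of the *Gas6* reads may belong to this neighbour.

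*Pros1* (chr16:62854305-62929340, plus strand) encodes protein S, the other ligand of these receptors. Its normalized levels in WT-GFP astrocytes were 428, 1975 and 2504 at the lowest, median and highest, and the GFP- cells had 5820, 4489 and 5374. Again no astrocyte sample reached a GFP- sample. The log2 fold change was -1.87 (limma, SE 0.52, 95% confidence interval -3.02 to -0.72, adjusted p = 0.0192). The APP-GFP samples fell into a low pair, 1026 and 1070, and a high pair, 2950 and 2373. The APP-SOCS3 samples ranged more evenly, with 1175, 2423, 558, 1096 and 1396.

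Promoters of 9 of the 10 genes were read from RefSeq sequences of the GRCm38.p6 build, the 250 bases before the annotated start. The gene left out was *Megf10*, whose promoter was not searched. SOCS3 acts on STAT3, so the letters of a STAT site, TTCNNNGAA, were searched on both strands. They were found before the start of 2 of the 9 genes, *Pros1* and *Lrp1*, and before 7.02% of all 32851 promoters searched. The AP-1 letters TGANTCA were found before none of the 9 and before 6.75% of all promoters, and the TATA box letters TATAAA before none of the 9 and before 12.4% of all. The GC box letters GGGCGG were found before 8 of the 9, all but *Itgav*, against 32.7% of all promoters, with overlapping matches counted. The 9 windows were rich in G and C, from 54.8 to 67.2% against a median of 52.4% over all promoters. The 3 sequences shown are those of *Pros1* and *Lrp1*, which hold the STAT letters 92 and 232 bases before the start, and of *Mfge8*, which had the largest log2 fold change of the 10 between astrocytes and the other cells. Each runs 5′ to 3′ on the strand of its gene, with STAT and GC box letters of either strand in capitals. A match of letters is no evidence of a bound site. *Pros1* lies on the plus strand at chr16:62854057-62854306, *Lrp1* on the minus strand at chr10:127621149-127621398 and *Mfge8* on the minus strand at chr7:79149061-79149310.

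Pros1: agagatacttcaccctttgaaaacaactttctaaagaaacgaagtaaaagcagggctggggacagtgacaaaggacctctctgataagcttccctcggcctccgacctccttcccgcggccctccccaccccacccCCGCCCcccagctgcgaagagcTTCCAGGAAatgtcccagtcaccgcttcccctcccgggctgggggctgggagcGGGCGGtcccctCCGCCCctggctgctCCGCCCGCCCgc

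Lrp1: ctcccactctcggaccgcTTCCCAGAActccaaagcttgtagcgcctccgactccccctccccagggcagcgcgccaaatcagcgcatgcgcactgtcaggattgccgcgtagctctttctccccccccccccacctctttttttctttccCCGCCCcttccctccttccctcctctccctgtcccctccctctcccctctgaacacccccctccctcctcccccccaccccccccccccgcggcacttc

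Mfge8: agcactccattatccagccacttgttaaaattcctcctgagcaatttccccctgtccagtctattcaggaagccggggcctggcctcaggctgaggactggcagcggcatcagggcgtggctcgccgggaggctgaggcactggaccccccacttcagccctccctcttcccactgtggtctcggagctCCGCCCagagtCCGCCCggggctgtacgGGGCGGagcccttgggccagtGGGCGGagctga

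Of the receptors, *Mertk* (chr2:128698997-128803007, plus strand) encodes the kinase that binds GAS6 and protein S. Its normalized levels in WT-GFP astrocytes were 324, 2920 and 3889 at the lowest, median and highest, against 1395, 848 and 1823 in GFP- cells. The 5 higher WT-GFP samples, from 2551 upwards, lay above the GFP- cells, and replicates 2 and 6, with 324 and 561, lay below them. With this spread the log2 fold change of 0.45 was not called (limma, 95% confidence interval -1.23 to 2.14, adjusted p = 0.665). APP-GFP samples had 2693, 1807, 889 and 2613, and APP-SOCS3 samples 1276, 3702, 1260, 1907 and 2311, all within the range of WT-GFP.

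*Megf10* (chr18:57133089-57297467, plus strand) encodes the receptor that binds C1q. Per kb of exon, its level was below that of *Mertk* in each of the 19 samples. WT-GFP astrocytes had 55.6, 472 and 1246 at the lowest, median and highest, APP-GFP 442, 194, 159 and 662, APP-SOCS3 424, 1157, 176, 545 and 896, and GFP- cells 355, 129 and 271. All 4 groups overlapped. Astrocytes against GFP- cells gave a log2 fold change of 0.73 (limma, 95% confidence interval -1.25 to 2.70, adjusted p = 0.549).

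*Itgav* (chr2:83724397-83806917, plus strand), the αv integrin subunit, had the widest range of the 10 genes among WT-GFP astrocytes. The WT-GFP samples ran from 46.6 in replicate 2 and 75.7 in replicate 6 to 2713 in replicate 7, with a median of 1691, a 58.3-fold range. The APP-GFP samples had 839, 418, 457 and 1942, and the APP-SOCS3 samples 408, 3048, 334, 652 and 736. GFP- cells were uniform, at 2006, 1404 and 1990. Replicate 2 alone, at 3048, stood apart in APP-SOCS3, above the 334 to 736 of the other samples of the group. The log2 fold change of -1.35 in WT-GFP mice had a 95% confidence interval from -4.14 to 1.43 (limma, adjusted p = 0.427), too wide to give a direction.

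*Itgb5* (chr16:33829665-33949336, plus strand), the β5 subunit that pairs with αv, had nearly the same level everywhere. WT-GFP astrocytes had 10420, 12354 and 15373 at the lowest, median and highest, APP-GFP 9428, 16010, 13603 and 15310, APP-SOCS3 11013, 14981, 11218, 11786 and 12206, and GFP- cells 12388, 11256 and 16643. The log2 fold change between astrocytes and GFP- cells was -0.058 (limma, 95% confidence interval -0.43 to 0.31). At the deposited scaling this interval leaves out a 1.5-fold difference in either direction. It depends on the scaling, since the median of all genes was -1.31 there and -1.74 with equal upper quartiles. The subunits of the αvβ5 integrin thus differed in spread, since the samples of WT-GFP astrocytes spanned 1.48-fold for *Itgb5* and 58.3-fold for *Itgav*.

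*Lrp1* (chr10:127538194-127621149, minus strand) encodes a large endocytic receptor that takes up many ligands, apolipoprotein E among them. The normalized levels were 1940, 2567 and 4462 at the lowest, median and highest in WT-GFP astrocytes and 4822, 4306 and 4240 in GFP- cells. Only WT-GFP replicate 7, the highest, lay within the range of the GFP- cells. Between the fractions it was lower by a log2 fold change of -0.74 (limma, SE 0.23, 95% confidence interval -1.24 to -0.23, adjusted p = 0.0305). APP-GFP samples had 3372, 2706, 2238 and 2896, and APP-SOCS3 samples 2304, 3065, 2385, 3999 and 2998.

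*Gulp1* (chr1:44551511-44796836, plus strand), the adaptor of MEGF10 and LRP1, had low normalized levels in all groups when length is left aside. Per kb of shared exon bases, of which it has few, its mean in WT-GFP astrocytes was 3122, against 2319 for *Gas6*. Its levels were 42.5, 266 and 597 at the lowest, median and highest in WT-GFP, 308, 130, 157 and 144 in APP-GFP, 242, 346, 191, 223 and 242 in APP-SOCS3, and 391, 417 and 491 in GFP- cells. Of the astrocyte samples, only the highest, WT-GFP replicate 3, lay above the lowest GFP- sample. In WT-GFP mice its log2 fold change was -0.99 (limma, 95% confidence interval -2.48 to 0.50, adjusted p = 0.28) and was not called.

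*Abca7* (chr10:79997576-80015570, plus strand), a transporter of the ABCA family, had the lowest level per kb in the 3 astrocyte groups. WT-GFP astrocytes had 27.0, 121 and 294 at the lowest, median and highest, and GFP- cells 269, 317 and 525. WT-GFP replicate 2, the highest, overlapped the GFP- cells. Its log2 fold change of -1.74 (limma, SE 0.65, 95% confidence interval -3.18 to -0.31, adjusted p = 0.0622) passed the unadjusted threshold only. The APP-GFP samples had 129, 0, 96.9 and 61.9, and the APP-SOCS3 samples 132, 67.0, 138, 99.0 and 12.3. In APP-GFP replicate 2 no read was counted, which allows a level of up to 2.85 at 3 reads, for counting error only.

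**Figure D2:**
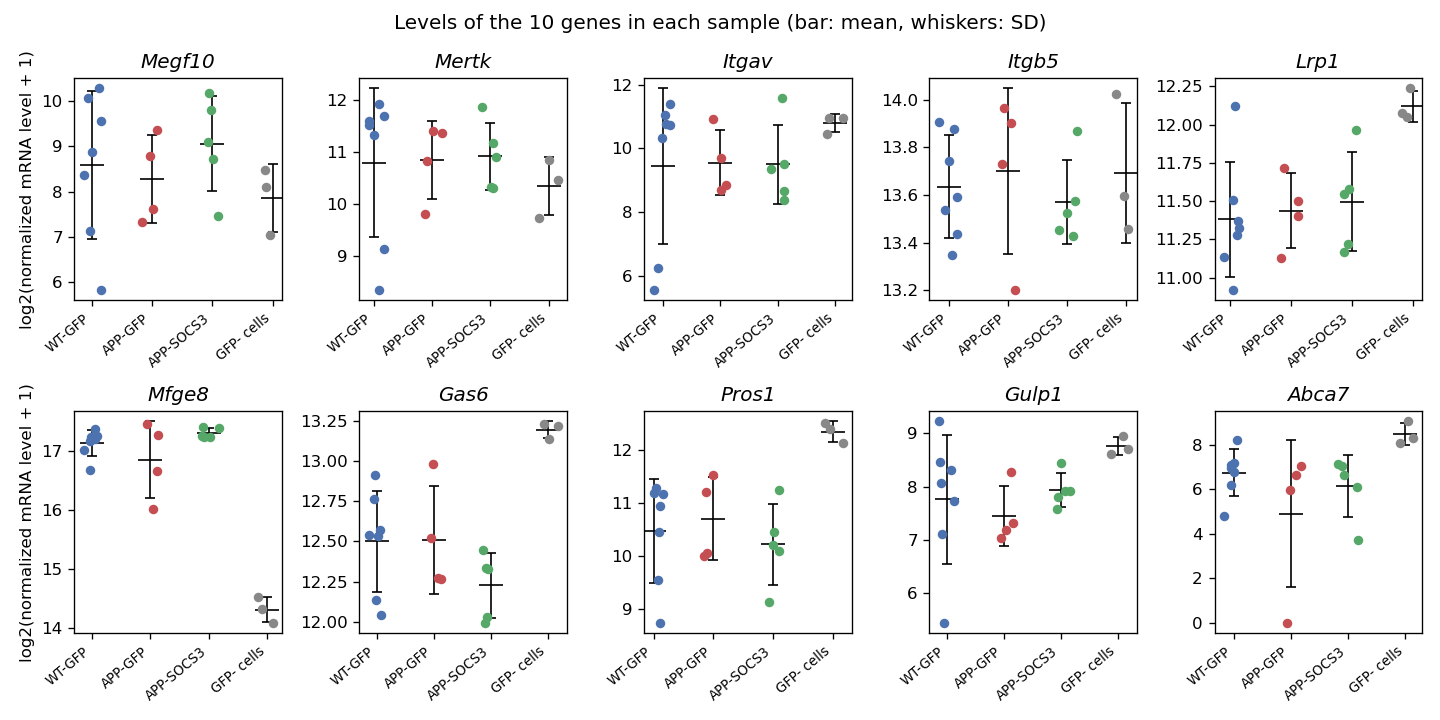
log2(normalized mRNA level + 1) of the 10 genes in each of the 19 samples (points), by group, with the group mean (bar) and SD (whiskers). Each panel has its own vertical axis. *Mfge8* separates the astrocyte samples from the GFP- cells, 2 WT-GFP samples lie far below the others for *Mertk* and *Itgav*, and *Itgb5* spans less than 1 log2 unit.

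A gene was called when its unadjusted p was under 0.05 in limma and its fold change at least 1.5. Between GFP+ astrocytes and GFP- cells of WT-GFP mice, 1 of the 10 genes was called higher (*Mfge8*) and 4 were called lower (*Lrp1*, *Gas6*, *Pros1* and *Abca7*). Of the 26709 genes tested, 9.25% were called higher and 33.5% lower, so 4 of 10 lower is near the background. Samples did not overlap for 1 gene higher and 2 lower, against 7.57 and 27.2% of all genes. The split of all calls differed between settings. It was 2471 higher and 8948 lower, 2034 and 9980 after rescaling to equal totals, and 1351 and 11098 after rescaling to equal upper quartiles. The count tests, which differ from limma in scaling and model, gave 3323 and 5265 with edgeR and 3173 and 5784 with DESeq2. The median log2 fold change was -0.72 over the 10 genes and -1.31 over all genes tested. Relative to this median, *Gas6* and *Lrp1* stood higher, and *Pros1* and *Abca7* lower. The median of all genes also differed between settings, at -1.73 and -0.78 with a pseudocount of 0.1 and 10, -1.74 with equal upper quartiles, -0.37 with edgeR and -0.67 with DESeq2, and with edgeR *Gas6* and *Lrp1* stood just below it. On adjusted p, 4 of the 10 genes passed, which became 1 without any one of the 3 GFP- samples and 4 to 5 without any one WT-GFP sample. With edgeR's quasi-likelihood test on whole reads, which uses TMM scaling, *Mfge8* (log2 fold change 3.10) and *Pros1* (-1.37) were called, and *Lrp1* (-0.42), *Gas6* (-0.40) and *Abca7* (-1.26) were not. The same 2 genes were called with the mean log2 level of the microglia or of the endothelial markers as a covariate in limma, where *Gas6* came to -0.092 and -0.078 and *Lrp1* to -0.84 and -0.15. These marker means did not overlap between the fractions, from 8.30 to 10.4 against 12.3 to 13.03 for microglia and from 5.92 to 10.2 against 12.5 to 13.2 for endothelium, so the covariate and the fraction are hard to tell apart. In bulk samples such as these, fewer cells of a type and less RNA per cell cannot be told apart.

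**Figure D3:**
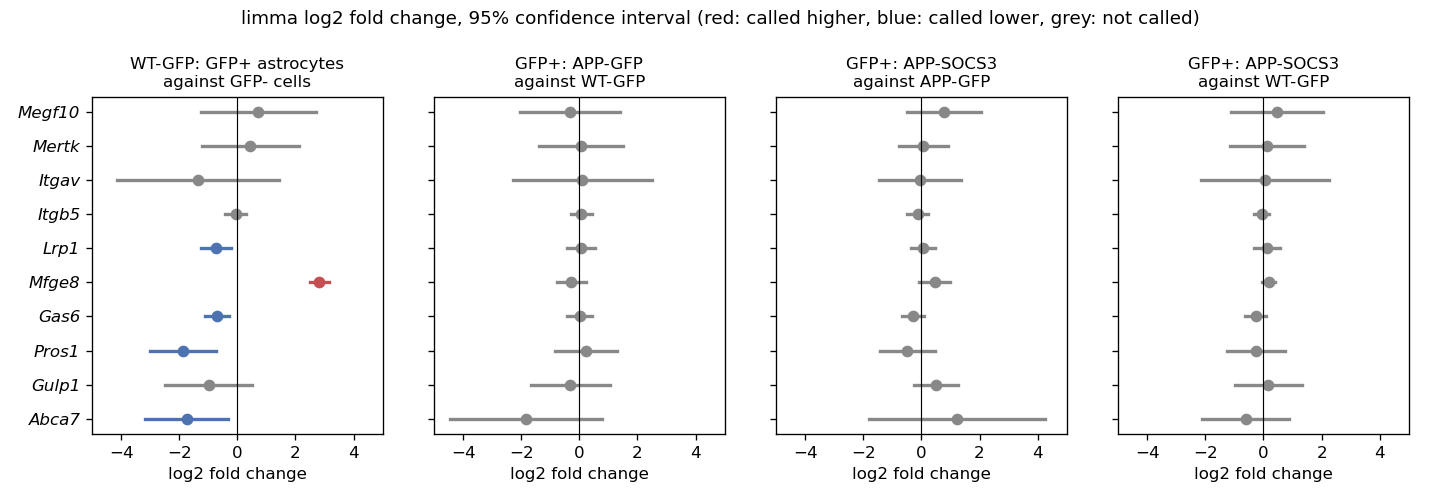
limma log2 fold change of each of the 10 genes (points) with its 95% confidence interval (lines) in the 4 comparisons. Red marks a gene called higher, blue a gene called lower and grey a gene not called. Calls occur only between GFP+ astrocytes and GFP- cells, and the intervals of *Itgav*, *Megf10* and *Abca7* are several times wider than those of *Itgb5*, *Lrp1* and *Gas6*.

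Between APP-GFP and WT-GFP astrocytes, none of the 10 genes was called, at an unadjusted p under 0.05 or by edgeR or DESeq2. Of 22969 genes tested, 1.66% were called higher and 0.57% lower, so that few or no calls among 10 genes are the rule. All calls split into 382 higher and 131 lower, but into 416 and 38 with equal upper quartiles, 412 and 247 with edgeR, and 205 and 325 with DESeq2. The adjusted p of each of the 10 genes was 0.999 in limma, and exact permutation p-values ranged from 0.158 to 0.970, with 0.00303 the smallest that 4 against 7 samples allow. The median log2 fold change was 0.032 over the 10 genes and 0.092 over all genes. What the data allow differs between the genes. For *Itgb5*, *Lrp1* and *Gas6* the log2 fold changes were 0.066, 0.057 and 0.011, with 95% confidence intervals of -0.29 to 0.43, -0.41 to 0.53 and -0.42 to 0.44. The interval of *Mfge8* ran from -0.77 to 0.21 around -0.28. For *Mertk* (0.053, interval -1.38 to 1.49), *Megf10* (-0.32, interval -2.03 to 1.40), *Gulp1* (-0.32, interval -1.68 to 1.05), *Pros1* (0.23, interval -0.86 to 1.31), *Itgav* (0.10, interval -2.28 to 2.49) and *Abca7* (-1.83, interval -4.44 to 0.78) a change of 1.5-fold in either direction was within the interval. The value of *Abca7* rests on APP-GFP replicate 2, the sample with no read, and without it was -0.20 (interval -1.74 to 1.35).

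Between APP-SOCS3 and APP-GFP astrocytes, again none of the 10 genes was called at an unadjusted p under 0.05 or by edgeR or DESeq2. The background was 2.33% of 22844 genes higher and 3.37% lower, with 532 and 769 genes, or 398 and 925 with edgeR. *Mfge8*, given above, had the smallest p in limma, and exact permutation p-values ranged from 0.127 to 0.944, with 0.00794 the smallest that 5 against 4 samples allow. *Megf10* had a log2 fold change of 0.78 (95% confidence interval -0.48 to 2.05) and *Gulp1* of 0.49 (-0.27 to 1.25), while *Gas6* had -0.28 (-0.67 to 0.097) and *Pros1* -0.48 (-1.43 to 0.47). *Mertk* came to 0.068 (-0.78 to 0.92), *Itgav* to -0.044 (-1.44 to 1.35), *Itgb5* to -0.13 (-0.50 to 0.24), *Lrp1* to 0.060 (-0.36 to 0.48) and *Abca7* to 1.23 (-1.81 to 4.26). Without APP-GFP replicate 2 the direction of *Abca7* turned, to -0.41 (-2.05 to 1.24). Adjusted p-values in limma ranged from 0.816 to 0.990. Single samples decided calls here. Without APP-GFP replicate 1, *Gulp1* (0.76) and *Mfge8* (0.60) were called higher in limma. Without APP-GFP replicate 4, *Mfge8* was called (0.66), and without APP-SOCS3 replicate 3, *Megf10* (1.18).

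Between APP-SOCS3 and WT-GFP astrocytes, which share their samples with the 2 comparisons above, none of the 10 genes was called at an unadjusted p under 0.05 or by edgeR or DESeq2. The background was 3.19% of 22958 genes higher and 2.02% lower. It split into 733 and 464 genes, or into 1330 and 258 with equal upper quartiles, 441 and 762 with edgeR, and 340 and 824 with DESeq2. The log2 fold changes ran from -0.60 for *Abca7*, or -0.0049 without APP-SOCS3 replicate 5, to 0.47 for *Megf10*. *Mfge8* came to 0.18 (limma, 95% confidence interval -0.059 to 0.41), which at the deposited scaling leaves out a 1.5-fold change in either direction. The same held for *Itgb5*, at -0.064 (-0.34 to 0.21), and *Lrp1*, at 0.12 (-0.32 to 0.56). At the same scaling *Gas6* came to -0.27 (-0.62 to 0.076), which leaves out a 1.5-fold higher level only. The intervals of *Mertk*, *Megf10*, *Gulp1*, *Itgav*, *Pros1* and *Abca7* held a 1.5-fold change in both directions. The median of all genes was 0.19 at the deposited scaling and 0.52 with equal upper quartiles, so all of these intervals depend on the scaling. Adjusted p-values in limma ranged from 0.916 to 0.994, and exact permutation p-values from 0.0947 to 0.961, with 0.00126 the smallest possible.

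The 10 genes did not vary together as 1 group over the 16 astrocyte samples. *Megf10*, *Mertk* and *Itgav* varied together most. Pearson's r of their log2 levels was 0.96 for *Mertk* and *Itgav* (Spearman's rho 0.95), 0.89 for *Megf10* and *Mertk* (rho 0.83) and 0.88 for *Megf10* and *Itgav* (rho 0.86), each with a permutation p of 1e-05 for r, the smallest that 100000 permutations give, and adjusted p = 0.000142 over 85 pairs. The adjusted permutation p of rho was 0.000283, 0.00184 and 0.00119. *Pros1* correlated with these 3 genes at r = 0.79, 0.74 and 0.80 for *Mertk*, *Megf10* and *Itgav* (adjusted permutation p = 0.00255, 0.0104 and 0.00219), but with rho of 0.61, 0.67 and 0.69 whose adjusted permutation p was 0.0845, 0.0515 and 0.0515. These 6 of the 45 pairs passed an adjusted p of 0.05 for r, and the first 3 for rho as well. After group means were removed, r of the first 3 pairs was 0.96, 0.91 and 0.91, and within the 7 WT-GFP samples 0.99, 0.93 and 0.93. The other groups held fewer than 6 samples. Without the 2 samples farthest from the median, WT-GFP replicates 2 and 6, r was 0.89, 0.78 and 0.79 and the 3 pairs still passed, whereas those of *Pros1* fell to 0.61, 0.53 and 0.65 and no longer did. *Mertk* and its other ligand *Gas6* had r = 0.21 (rho 0.30, permutation p = 0.444 for r, adjusted p = 0.609). The integrin partners *Itgav* and *Itgb5* had r = 0.44 (rho 0.49, permutation p = 0.0855 for r, adjusted p = 0.304).

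The same 3 genes followed the level of astrocyte markers. The mean log2 level of the 15 astrocyte markers correlated with *Megf10* at r = 0.93 (rho 0.92), with *Mertk* at r = 0.93 (rho 0.89) and with *Itgav* at r = 0.92 (rho 0.89), with adjusted permutation p = 0.000142 for each r and 0.000283, 0.000425 and 0.000283 for rho. Without WT-GFP replicates 2 and 6 these r were 0.87, 0.83 and 0.80. *Pros1* had r = 0.78 with rho 0.66 (adjusted permutation p = 0.00302 and 0.0559), and r = 0.60 without these 2 samples. WT-GFP replicates 2 and 6 had the lowest astrocyte marker means of all astrocyte samples, 13.9 and 14.2 against 14.3 to 15.1. The marker mean was set against the 10 genes only after the data were seen. With *Mfge8* (r = 0.23, rho 0.21) and *Itgb5* (r = 0.33, rho 0.29) it had no correlation past the threshold (adjusted permutation p of r = 0.609 and 0.415). None of the 10 genes correlated with the number of genes detected or with the microglia or endothelial marker mean at an adjusted permutation p under 0.05. The largest of these r was that of *Mfge8* with the microglia markers, -0.62 (rho -0.47, permutation p = 0.0113 and 0.0684, adjusted p = 0.0875 and 0.215). *Mfge8* with the endothelial markers had the largest rho, -0.64 (r = -0.51, permutation p = 0.00901 for rho, adjusted p = 0.0696).

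**Figure D4:**
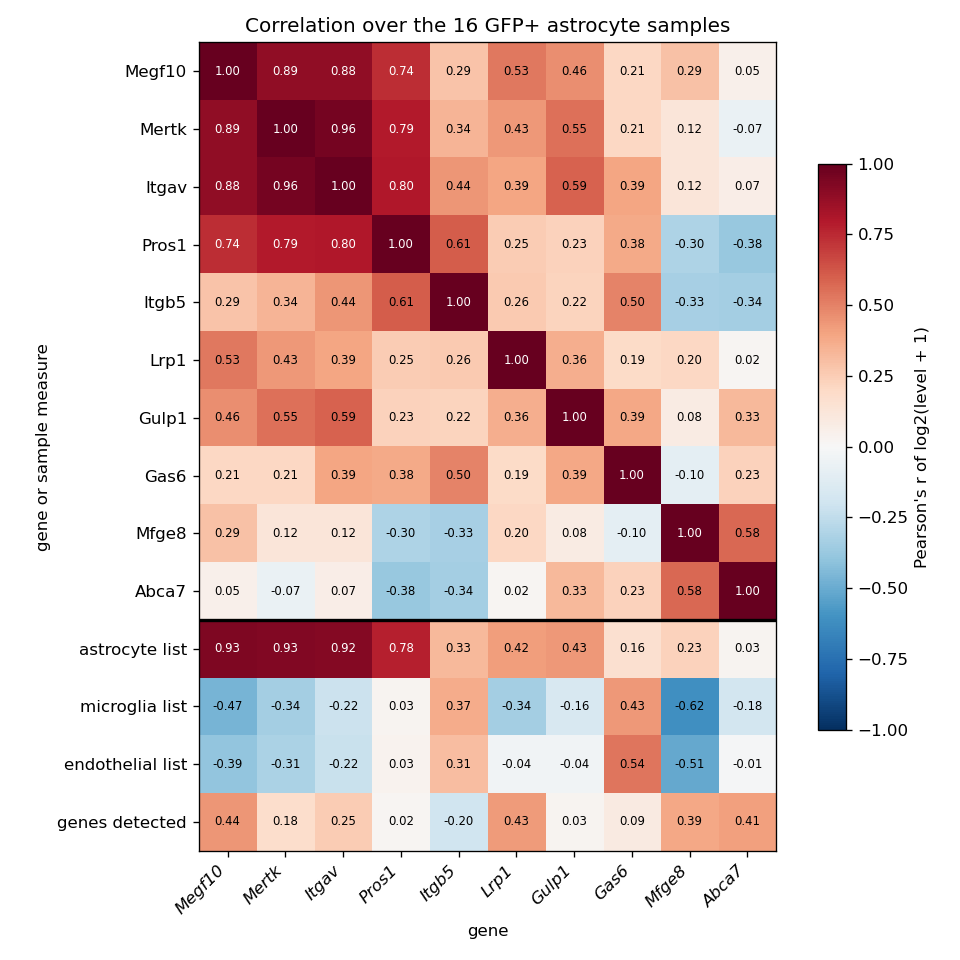
Pearson's r of log2(level + 1) over the 16 GFP+ astrocyte samples, between the 10 genes (above the line) and between them and 4 measures of each sample (below the line). *Megf10*, *Mertk*, *Itgav* and *Pros1* form a block from 0.74 to 0.96 that also follows the astrocyte marker mean, at 0.78 to 0.93.

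The search for genes of like pattern over the 16 samples covered 12166 genes whose mean in astrocytes reached a level of 100. Nearest to *Megf10* were *Hacd3* (r = 0.95, rho 0.96) and *Cdh11* (r = 0.95, rho 0.96). For *Mertk* they were *Itgav* itself and *Mboat2* (r = 0.96, rho 0.90), and for *Itgav*, *Mertk* and *Pcyox1* (r = 0.95, rho 0.96). *Pros1* was followed by *Nat8f4* (r = 0.95, rho 0.89) and *Ckap5* (r = 0.93, rho 0.88). *Gulp1* was followed by *Tmem126b* (r = 0.88, rho 0.74) and *Ppp2r5c* (r = 0.88, rho 0.89), and *Abca7* by *Lrrc20* (r = 0.95, rho 0.70) and *Zkscan6* (r = 0.92, rho 0.75). The nearest genes of *Mfge8* were *Wnt7a* (r = 0.92, rho 0.62) and *Adcy8* (r = 0.89, rho 0.50). *Lrp1* had *Mllt1* (r = 0.86, rho 0.85) and *Git2* (r = 0.81, rho 0.74), *Itgb5* had *Txndc16* (r = 0.83, rho 0.82) and *Abca9* (r = 0.80, rho 0.77), and *Gas6* had *Cdk5rap2* (r = 0.80, rho 0.81) and *Pth1r* (r = 0.77, rho 0.78). These are the highest of many correlations and carry no test.

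Around the 10 genes, 8 lists of other engulfment genes were compared between the sorted fractions. Genes outside the fixed naming rule, such as *Adgrb1*, *C4b*, *Ctsb* and *Lamp1*, and *Trem2* and *Atp11b* in the comparisons that follow, are named because few genes were called, after their values were seen. Of 14 other receptors of phosphatidylserine or apoptotic cells tested in WT-GFP mice, 1 was called higher in GFP+ astrocytes and 9 lower, with a median log2 fold change of -3.64. *Adgrb1* (BAI1, a phosphatidylserine receptor) was the one higher, at 0.95, with mean levels of 1256 against 679. *Megf11*, the closest relative of *Megf10*, had the mean levels 8.50 and 537, and *Pear1* 237 and 3607. The other kinases of the *Mertk* family were not called: *Axl* had a log2 fold change of 0.18 (95% confidence interval -0.57 to 0.94) and *Tyro3* of 0.50 (-0.66 to 1.67). Mean levels of *Axl* were 2847 in WT-GFP astrocytes and 2355 in GFP- cells.

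Of 10 other integrin subunits, 8 were called lower and none higher, with a median of -4.60. *Itgb3*, the other partner of *Itgav*, had mean levels of 7.10 in WT-GFP astrocytes and 197 in GFP- cells, and *Itgb1*, the common β1 subunit, 2007 and 15294. *Itgb8*, a further partner of *Itgav*, was not called, with mean levels of 263 and 211 (log2 fold change 0.24, 95% confidence interval -1.18 to 1.66). Of 13 other bridging proteins and opsonins, 1 was called higher and 10 lower, with a median of -2.23. Complement *C4b* was the one higher (log2 fold change 2.95, limma, adjusted p = 2.92e-05), at 13563 against 1734. *Thbs1*, thrombospondin 1, had 16.7 against 1631, and *Edil3*, a relative of *Mfge8*, 6.53 against 775. *Tulp1* had no read in any of the 7 WT-GFP astrocyte samples, and 18.1, 21.8 and 719 in the GFP- samples from the lowest to the highest. *Timd4* and *Itgax* also had none there. With these 3 genes at the limit that 3 reads give, the medians were -3.24, -4.23 and -2.23 for receptors, integrins and bridging proteins.

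Of 13 engulfment adaptors 7 were called lower and none higher, with a median of -1.23, near that of all genes. *Elmo1* (-4.75), *Plcg2* (-4.11) and *Dab2* (-2.90) were the lowest of them without overlap. Of 11 genes of the lipoprotein receptor family to which LRP1 belongs, 3 were higher and 2 lower, with a median of -0.82. *Lrpap1*, the chaperone of LRP1, was higher at 1.13, with means of 9672 against 4414, and *Lrp5* was lower at -3.01. *Vldlr* was not called (-3.78, 95% confidence interval -8.52 to 0.96). Of 9 other ABCA transporters 3 were lower and none higher, with a median of -1.14. *Abca9* (-8.51) and *Abca4* (-6.88) were the lowest, and *Abca1*, an exporter of cholesterol, was not called (-0.20, -1.47 to 1.06). Of 10 scramblases, flippases and genes of the CD47 axis 3 were lower, with a median of -0.99, among them *Xkr4* (-5.24) and *Ano6* (-3.35). Of 16 genes of phagosome maturation and lysosomes 3 were higher and 3 lower, with a median of -0.22. *Map1lc3b* (0.95), *Ctsb* (0.83) and *Lamp1* (0.78) were the higher ones, and *Cd68*, a lysosomal protein of microglia, was lower at -2.70. *Tfeb*, a regulator of lysosomal genes, was lower at -0.95. These counts compare with 9.25% higher and 33.5% lower among all genes, and *Itgb1*, *Itga6* (-2.26), *Itgb2* (-5.62) and *Itgam* (-6.78) were lower together with all endothelial and microglia markers. The part of those cells in the list counts was not tested.

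In APP-GFP against WT-GFP astrocytes, 3 of 11 other receptors tested were called higher (*Stab2*, *Cd300lf* and *Trem2*), 1 of 16 phagosome genes was called higher (*Cd68*) and 1 of 9 scramblase, flippase and CD47 genes lower (*Atp11b*), all with overlapping samples. No gene of the other 5 lists was called. Among all genes tested, 1.66% were called higher and 0.57% lower. List medians were 1.60 for the receptors, 0.83 for integrins, 0.30 for bridging proteins, 0.17 for adaptors, -0.20 for the lipoprotein receptor family, 0.016 for the ABCA transporters, -0.14 for scramblases and flippases and 0.085 for the phagosome. *Trem2*, a receptor of microglia, had mean levels of 1761 in APP-GFP and 444 in WT-GFP astrocytes. Of 19 microglia markers 2 were called higher in this comparison, and all 19 had positive log2 fold changes, with a median of 0.68. Summed over the list, APP-GFP samples had 17350 to 94537 and WT-GFP samples 12862 to 44940, which overlap, and the part of these cells in these calls was not tested. The adjusted p of the 5 called genes was 0.999 in limma. *Axl* came to 0.36 (95% confidence interval -0.35 to 1.07), *Abca1* to 0.012 (-1.03 to 1.06) and *Tyro3* to -2.11 (-5.01 to 0.80). Of the 4 APP-GFP samples, 1 was at 0 for *Tyro3*, and the group medians were 319 in APP-GFP and 326 in WT-GFP.

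In APP-SOCS3 against APP-GFP astrocytes, where none of the 10 genes was called, 4 of 11 other receptors were called lower, 2 of 9 integrins, 4 of 11 bridging proteins and 1 of 16 phagosome genes, while 1 of 8 ABCA transporters (*Abca8b*) was called higher. None was called among 13 adaptors, 11 genes of the lipoprotein receptor family and 9 scramblase, flippase and CD47 genes. The medians were -2.20, -0.23, -1.002, -0.074, 0.68, -0.022, 0.0090 and 0.22 in the order named, against 0.076 over all genes. The counts here and for the markers below compare with 2.33% of all genes called higher and 3.37% lower. Among the called genes, those whose samples did not overlap were *Stab1* (mean levels of 48.4 against 402), *Stab2* (44.99 against 289), *Itgb2* (80.9 against 618), *C1qa* (671 against 3949) and *C4b* (4327 against 16869). The share of all genes without overlap is not given for this comparison, so their number cannot be judged against it. *C4b* had a log2 fold change of -1.96 (limma, SE 0.34, adjusted p = 0.194). C1q, the ligand of MEGF10, was lower in all 3 chains, with means of 1832 against 10387 for *C1qb* and 1237 against 7168 for *C1qc*. The other called genes, *Pear1*, *Trem2*, *Itgam* and *Cd68*, had overlapping samples. In brain, C1q, *Itgb2*, *Itgam*, *Cd68* and *Trem2* are mainly expressed by microglia. The microglia markers were lower too, 18 of 19 called, with summed levels of 9156 to 17266 in APP-SOCS3 and 17350 to 94537 in APP-GFP astrocytes, which did not overlap. Of 19 endothelial markers tested 16 were lower, with summed levels of 1750 to 9407 against 8434 to 48744. Of the other lists, 5 of 7 markers of border macrophages (median -3.02, summed levels of 0 to 187 against 135 to 528), 5 of 12 of mural cells (median -2.05), 3 of 9 of oligodendrocyte precursors, 3 of 13 of neurons, 1 of 9 of oligodendrocytes and 0 of 5 of choroid plexus were called lower. What share these cells had in the list counts was not tested. Astrocyte markers were not called, 0 of 15, with a median of 0.11. Adjusted p-values of the 12 called list genes in limma ran from 0.194 to 0.669.

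**Figure D5:**
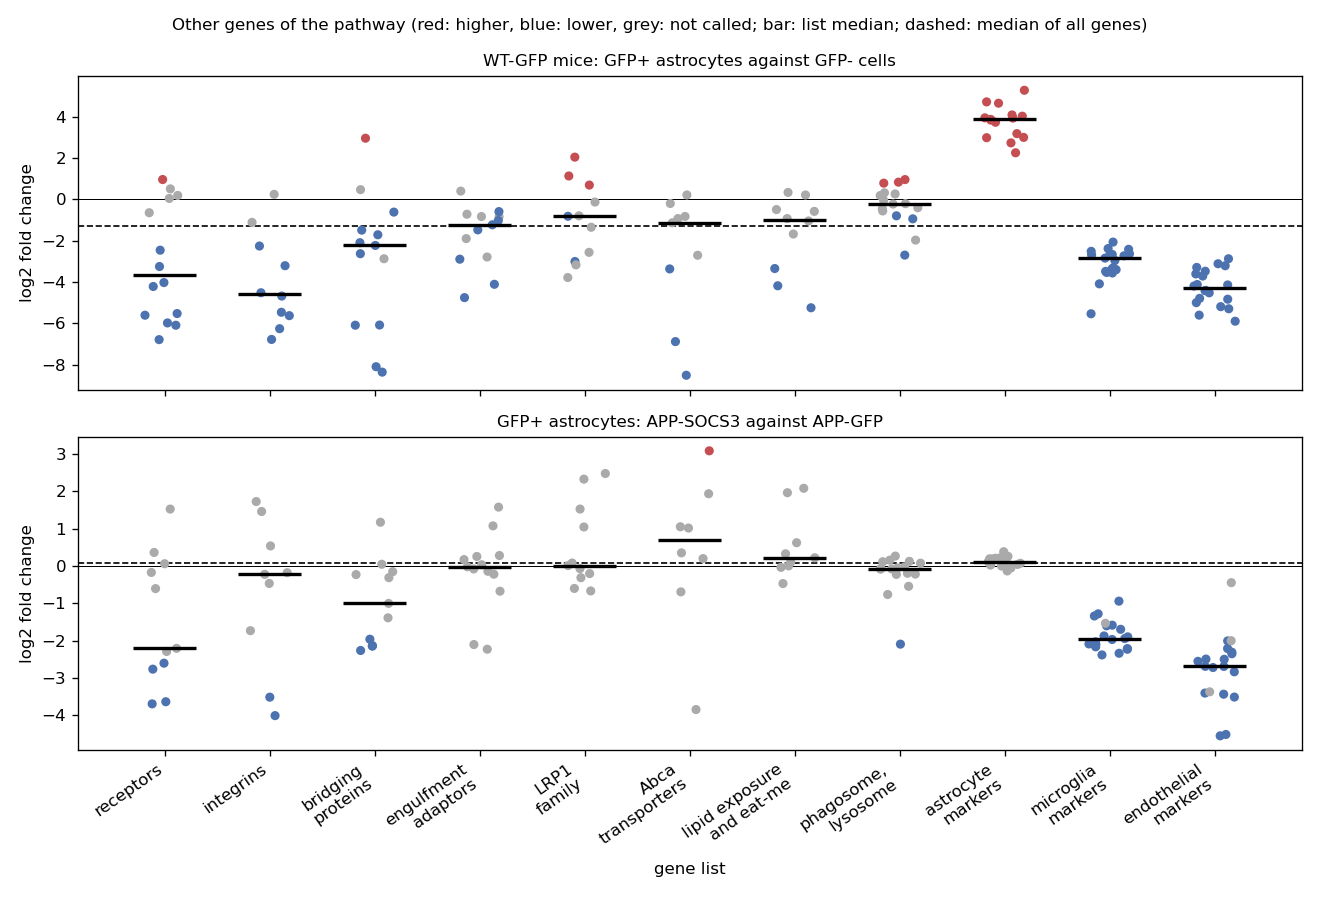
Log2 fold change (limma) of each tested gene (points) of 8 other lists of engulfment genes and 3 lists of cell type markers, for GFP+ astrocytes against GFP- cells (top) and APP-SOCS3 against APP-GFP astrocytes (bottom), with the list median (bar) and the median of all genes tested (dashed line). Red and blue points are genes called higher and lower. In the lower panel 10 of the 11 engulfment genes called lower belong to the receptors, integrins and bridging proteins, and microglia and endothelial markers lie below 0.

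In APP-SOCS3 against WT-GFP astrocytes, 4 of 10 bridging proteins were called lower, the 3 chains of C1q and *C4b*, with 4327 against 13563 for *C4b* (log2 fold change -1.68). Among the other lists 1 of 8 integrins was called higher (*Itga3*) and 1 of 11 genes of the lipoprotein receptor family lower (*Lrp8*, -0.89), and none of 10 receptors, 13 adaptors, 9 ABCA transporters, 9 scramblase, flippase and CD47 genes and 16 phagosome genes. The samples of each of these genes overlapped. Over all genes tested, 3.19% were called higher and 2.02% lower. The medians of the 8 lists ran from -0.84 for bridging proteins to 0.36 for ABCA transporters. Microglia markers were lower here as well, 13 of 19 called, with a median of -1.15, and endothelial markers 14 of 20, with a median of -2.49.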

How the data were processed

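RNAseq of 16 samples of GFP+ astrocytes and 3 of GFP- cells was examined. The authors made cDNA from low amounts of RNA with PCR amplification and sequenced it on a HiSeq 2000 in paired reads of 100 bases. They aligned the reads to mm10 with STAR 2.4.0, counted them on constitutive regions of FAST DB genes and scaled the counts by DESeq2. This normalized count is the signal deposited, with 60567 entries, of which 34671 have no symbol. FastQC, Picard and SAMtools are also named in the submitters' processing notes. Their filter on intergenic background was not repeated here, and whether reads were counted by strand is not given in the sources used here.

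Each value was divided by the value of a single read of its sample, and 100% of values came out whole (tolerance 0.01). Levels were tested as log2(level + 1) in limma 3.58.1 (R 4.3.3) with a mean-variance trend, within the groups compared, over genes with a mean of at least 10 in either group. Fold changes are differences of means on this scale, which understates the change of genes low in all samples and can exceed the ratio of mean levels where single samples are near 0. A call needed an unadjusted p under 0.05 and 1.5-fold change or more, the thresholds of the study, and Benjamini-Hochberg adjusted p-values over all genes tested are given. Single genes were also tested by two-sided exact permutation of the samples. Correlations used 100000 permutations over 16 samples, adjusted over 85 pairs. Exon lengths came from GENCODE M21 and promoters from RefSeq. The limma test and the correlation search were tested on simulated data.

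The genes and the lists were chosen with earlier results of these data known: 8 lists of engulfment genes and 9 lists of markers (astrocytes, microglia, border macrophages, endothelium, mural cells, neurons, oligodendrocyte precursors, oligodendrocytes, choroid plexus). Named were the 10 genes, relatives or partners (*Axl*, *Tyro3*, *Vldlr*, *Abca1*, *Itgb1*, *Itgb8*, *Itga6*), up to 3 called genes per list whose groups did not overlap and whose change was largest, the 2 genes of most similar pattern, *Socs3*, and leading markers. Some genes that this rule names are not reported here. Alternatives were the pseudocount, the minimum level, 2 rescalings, all 19 samples in 1 fit, edgeR 4.0.16 and DESeq2 1.42.0 on whole reads, adjusted p, the replicate number as a block, marker lists as covariates, and leaving out each sample. Leaving out the 4 samples with fewer than 20000 genes, and the astrocyte markers as a correlate, were chosen after seeing the data.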

Additional observations from a re-analysis of the deposited data

Results flagged for a closer look

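*Abca7* in APP-GFP replicate 2 was the one value that Dixon's outlier test on log2(level + 1) flagged within its group. Its normalized level was 0, with no read, and the next lowest of the 4 samples had 61.9. On the log2(level + 1) scale the gap was 0.851 of the range of the group, above Dixon's critical value of 0.829. The test was not run on the normalized levels themselves, where a level of 0 lies less far from the others. Chance flags about 1 in 20 groups, and 30 groups of levels were looked at. The sample had 16471 genes with a read, against 24859 to 25273 in the other 3 APP-GFP samples, and the part of this in the missing *Abca7* reads was not tested.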

How the results depend on the processing

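Of 979 log2 fold changes of the 10 genes under other settings, 13 lost a call, 4 gained one and none reversed a called direction, while 98 changed sign with no call under either setting. Between GFP+ astrocytes and GFP- cells, the 5 genes called became 2 with edgeR, 2 with the microglia covariate and 2 with the endothelial covariate. In all of these settings *Mfge8* and *Pros1* were called. *Abca7* also lost its call with all 19 samples in 1 fit, without GFP- replicate 3 (log2 fold change -1.46) and on adjusted p. Leaving out each sample gave 4 to 5 of the 10 genes here, 0 to 2 in APP-SOCS3 against APP-GFP, and 0 in the other comparisons. The number of genes called in GFP+ against GFP- (11419) was 6709 with a minimum level of 100, 3571 and 5594 with the microglia and endothelial covariates, and 8838 to 11679 leaving out each sample. In APP-GFP against WT-GFP (513) it was 817 with no minimum, 123 with a minimum of 100, 991 with all 19 samples in 1 fit, 336 with the microglia covariate, 1 on adjusted p, and 393 to 677 leaving out each sample. In APP-SOCS3 against APP-GFP (1301) it was 650 with a minimum of 100, 541 and 532 with the covariates, 1 on adjusted p, and 1052 to 1836 leaving out each sample. In APP-SOCS3 against WT-GFP (1197) it was 441 with a minimum of 100, 7 on adjusted p, and 904 to 1435 leaving out each sample. A higher minimum tests fewer genes, and the cause of the other shifts was not tested. Without the 4 samples with fewer than 20000 genes, a choice made after seeing the data, 5, 0, 0 and 0 of the 10 genes were called in the 4 comparisons. Of the 6 correlated pairs, 3 remained without the 2 farthest samples, and those lost were the pairs of *Pros1*.

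In no comparison did every same-numbered pair of samples correlate above 0.1 (-0.177 to 0.242), so the numbers were not taken to pair the samples. In APP-GFP against WT-GFP 3 of 4 pairs did, with a median of 0.138 against -0.021 for other pairs. With the replicate number as a block, the comparisons gave 10999, 663, 1132 and 1433 genes and 4, 0, 0 and 0 of the 10 genes, with the call of *Abca7* lost (-1.32).

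With the longest transcript as length, *Itgav* and *Lrp1* exchanged ranks 6 and 7, and *Gulp1* and *Megf10* ranks 8 and 9. Shared exon length could not be used for *Itgav* and *Lrp1*, which have none, and *Abca7* had no value in APP-SOCS3 against APP-GFP with a minimum level of 100. At 3 reads, levels below 2.27 to 3.53 cannot be told from 0, which bears on *Abca7* alone among the 10 genes.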
